A study of Mus musculus with 13 samples.

Results

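Transcript levels of old quadriceps muscle were compared between the 2 batches that the study's labels name. The libraries compared were all 6 of aged mice given vehicle, 3 of batch 1 (replicates 2, 3 and 4) and 3 of batch 2 (replicates 2, 3 and 8), out of 13 libraries in the series. They were chosen by their labels and not by any measured value. Both groups were quadriceps of C57BL/6 mice labelled as older than 24 months, injected daily into the peritoneum for 4 weeks with a vehicle of ethanol and Cremophor EL in D5W, and taken as lysates of whole muscle. Apart from the form of the library names, the groups differ in the labels by the batch number alone. The names start with AV in batch 1, or with Aged for its replicate 4, and with RM-Lib in batch 2. What a batch stands for (mice, dissection, library preparation or sequencing) is not stated by the labels, so these cannot be told apart. The other 7 libraries entered the statistical model to estimate the spread, and their levels are given beside some of the results. In batch 1 they comprise 4 libraries of vehicle-injected young mice (3 months). In batch 2 they comprise 3 of aged mice that received SW033291, which blocks 15-PGDH, an enzyme that breaks down prostaglandins, in daily doses of 5 mg/kg. Nothing in the labels says that each library came from its own animal, so the p-values measure the spread between these libraries, which may be technical.

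Quadriceps of the mouse is built mostly of fast fibres. Each fibre makes a set of contractile proteins, with the myosin heavy chain Myh4 in the fastest type, Myh1 and Myh2 in the intermediate ones and Myh7 in slow fibres, and a large calcium release machinery around the sarcoplasmic reticulum. Whole muscle also holds vessels, connective tissue, nerve, fat and blood, whose transcripts are part of the same lysate. A library's profile further carries marks of how the RNA was isolated, fragmented and sequenced, since long and short transcripts, and transcripts rich in G and C, are not recovered equally in every preparation.

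The unit is TPM, in which reads are corrected for transcript length and then scaled to an equal total per library. Sequencing depth is lost in that step, so it is unknown here and no counting interval can be given. Genes entered the test if 3 or more of the 13 libraries reached 1 TPM, and differences are batch 2 minus batch 1 on the log2(TPM + 1) scale, a scale that understates the change of genes near or below 1 TPM. A gene was called when its adjusted p (limma, Benjamini-Hochberg over 11876 genes) was under 0.05. The median difference of all tested genes was 0.11, so each difference below holds that shift, and the medians of gene lists are given beyond it.

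The 6 libraries had skeletal muscle profiles. Acta1 (skeletal alpha-actin) stood at 24221 to 50729.9 TPM and Ckm (muscle creatine kinase) at 29159 to 37541 TPM, and 38.4% to 42.0% of all TPM fell on the top 20 genes. Batch 1 replicate 4 stood apart from the other libraries. Its log2 levels correlated with those of batch 1 replicates 2 and 3 at Pearson r = 0.952 and 0.947 across genes, against 0.987 between those 2 libraries and 0.967 to 0.974 within batch 2. With the libraries of batch 2 it correlated at 0.958 to 0.960, above its values within batch 1. Batch 2 replicate 8 correlated with batch 1 replicates 2 and 3 at 0.975 and 0.972, against 0.967 and 0.969 within its own batch. The libraries thus did not all correlate best within their batch. Batch 1 replicate 4 also had the lowest Acta1 level and the most genes at 1 TPM or more, 11687 against 10710 to 11422. Summed over 20 neutrophil genes, the libraries of batch 1 stood at 1.72, 6.35 and 1837 TPM in replicates 2, 3 and 4, and those of batch 2 at 826, 9.91 and 25.1 TPM in replicates 2, 3 and 8. Summed over 19 erythroid genes the levels were 539, 765 and 4095 TPM in batch 1 and 2462, 494 and 765 TPM in batch 2, in the same order. The high levels thus lay in 1 library of each batch. Xist was at 0.01 TPM or less in all 6 libraries, and the Y-linked Ddx3y stood at 10.6, 9.16 and 49.5 TPM in batch 1 and at 16.9, 23.4 and 12.4 TPM in batch 2.

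Between the batches, 267 of 11876 genes were called (2.25%), of which 204 were higher in batch 2 (1.72%) and 63 lower (0.53%). The median difference of the called genes was 0.73 for those higher and -0.62 for those lower, and 23 and 10 of them differed by 1 log2 unit or more. A total of 2148 genes had an unadjusted p under 0.05, where 594 would be expected with no difference. The 3 libraries of batch 2 lay outside the range of the 3 of batch 1 in 1963 genes (16.5%), higher in 1412 (11.9%) and lower in 551 (4.64%), and in 266 of the 267 called genes. Groups of 3 can lie apart with no difference between batches, so these shares serve as background for the lists below. Abcc9 was the called gene whose groups overlapped. For 112 of the genes called higher, all 6 libraries of batch 2, treated ones included, lay above all 7 of batch 1, young ones included. The same held downward for 36 of the genes called lower. Over all tested genes these splits by batch number were found in 312 genes upward (2.63%) and 111 downward (0.935%).

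How many genes were called depended on single libraries and on the scaling. Without batch 1 replicate 4 the count was 1643 (13.8%), 1412 higher (11.9%) and 231 lower (1.95%), and it held all 267 of the genes called with 6 libraries. Without batch 1 replicate 2 the counts fell to 11 higher and 7 lower, without batch 2 replicate 2 to 10 and 11, and without batch 2 replicate 3 to 11 and 10. Without batch 1 replicate 3 they were 142 and 43, and without batch 2 replicate 8 they were 373 and 105. Fitted to the 6 aged vehicle libraries alone, without the spread of the other 7, limma called 1 gene higher and 0 lower, with 1230 genes at an unadjusted p under 0.05. The direction also moved with the scaling, since 76.4% of the calls were upward in the TPM as deposited and 32.2% (49 higher, 103 lower) after scaling by the median of ratios. A total of 12 genes were called whichever of the 6 libraries was left out. They were Aldoart1, Gm5523, Gm14305, Gm5088, Myh4, Myo18a, Camsap1 and Diap1 (higher) and Sepw1, Rps16, Cox6b1 and Uqcc2 (lower), of which Myo18a, Camsap1, Diap1 and Uqcc2 were named after their values were seen.

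**Figure D1:**
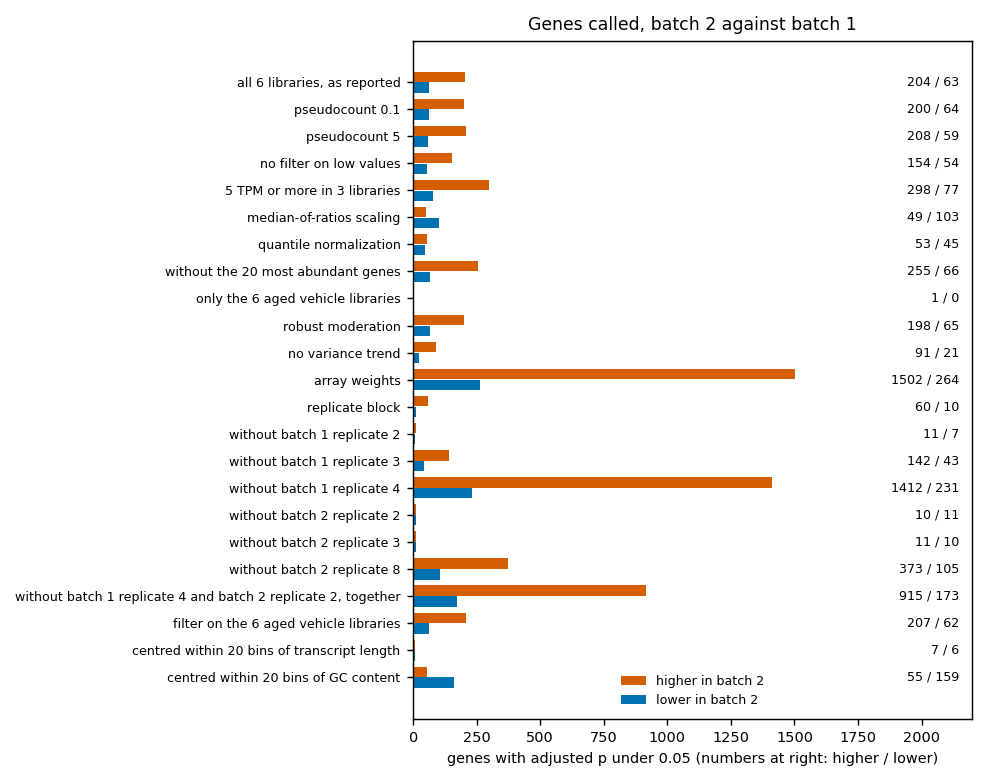
Number of genes called higher (orange) or lower (blue) in batch 2 than in batch 1 (x axis, genes with adjusted p under 0.05) under the reported analysis and each alternative (y axis). The counts ran from 1 and 0 with the 6 aged vehicle libraries alone to 1502 and 264 with a weight per library, against 204 and 63 as reported.

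Copies of abundant muscle and housekeeping genes were prominent among the genes with the largest rise in batch 2. Of the 15 genes with the largest positive difference, 2 are retrocopies of the glycolytic enzyme gene Aldoa and 5 are annotated pseudogenes. A retrocopy arises when a messenger RNA is copied back into DNA and inserted elsewhere in the genome. Its sequence stays close to that of its source, so short reads can fit both places and the estimate for a copy depends on how such reads are shared out. Sequences of the copies and their closest matches were taken from GENCODE vM21 transcripts (build GRCm38, while the study's processing notes name mm9). The 3 pairs below are shown because the copy was called while the levels of its source overlapped between the batches. Each stretch is 90 bases, read 5′ to 3′, with the bases that differ between copy and source in capitals.
Aldoart1: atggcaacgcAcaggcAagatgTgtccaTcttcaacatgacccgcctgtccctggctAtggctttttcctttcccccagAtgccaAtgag
Aldoa: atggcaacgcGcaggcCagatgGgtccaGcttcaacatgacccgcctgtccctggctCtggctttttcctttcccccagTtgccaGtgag
Gm5523: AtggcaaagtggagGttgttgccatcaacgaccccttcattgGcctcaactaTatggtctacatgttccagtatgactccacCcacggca
Gapdh: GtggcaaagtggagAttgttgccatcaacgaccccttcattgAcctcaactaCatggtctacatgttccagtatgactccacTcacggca
Rps15a-ps6: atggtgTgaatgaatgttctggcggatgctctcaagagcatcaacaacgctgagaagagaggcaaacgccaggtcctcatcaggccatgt
Rps15a: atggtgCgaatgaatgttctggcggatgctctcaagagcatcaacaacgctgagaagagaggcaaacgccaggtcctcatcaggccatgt
The stretches hold 7, 5 and 1 differing bases. Over the aligned transcript, Aldoart1 was 92.7% identical to Aldoa across 1508 bases, Gm5523 was 94.2% identical to Gapdh across 1008 bases, and Rps15a-ps6 was 98.7% identical to Rps15a across 393 bases. Exact 50-base stretches shared with the transcripts of any other gene made up 5.79% of Aldoart1, 0.31% of Aldoart2, 34.6% of Gm5523 and 55.2% of Rps15a-ps6.

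Aldoart1 had the smallest adjusted p of all genes. It stood at 4.65, 3.98 and 2.17 TPM in batch 1 and at 28.1, 25.6 and 34.8 TPM in batch 2. The mean was 3.60 ± 1.28 TPM (SD, n = 3) in batch 1 and 29.5 ± 4.76 TPM (SD, n = 3) in batch 2, 8.19-fold higher. Its log2 difference was 2.76 ± 0.24 (SE; limma adjusted p = 0.00025), and it passed under all 22 alternatives that were run. The young libraries of batch 1 stood at 3.43 to 6.58 TPM and the treated libraries of batch 2 at 24.65 to 32.3 TPM, so all 13 libraries split by batch number. Its source Aldoa stood at 26335, 23583 and 14823 TPM in batch 1 and at 21798, 20854 and 25671 TPM in batch 2, and these ranges overlapped.

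Aldoart2, the other copy of Aldoa (89.5% identical across 1310 bases), was near the lower limit of the scale, at 0.39, 0.23 and 0.08 TPM in batch 1 and 3.37, 1.86 and 1.91 TPM in batch 2. Its difference was 1.43 ± 0.23 (SE; limma adjusted p = 0.011), and its call was lost without batch 2 replicate 2 (adjusted p = 0.055). Gm5523, a pseudogene of the glycolytic enzyme gene Gapdh, stood at 0.56, 0.77 and 0.35 TPM in batch 1 and at 4.77, 11.65 and 5.93 TPM in batch 2 (difference 2.36 ± 0.30, SE; limma adjusted p = 0.0061). Gapdh itself stood at 10030.3, 9617 and 7124 TPM in batch 1 and at 6525, 6199 and 8315 TPM in batch 2, with a difference of -0.34 (limma adjusted p = 0.19, and 0.012 without batch 1 replicate 4). The copy thus lay higher in every library of batch 2, while the levels of its source overlapped and leaned the other way. Gm6981, a further Gapdh pseudogene picked after its values were seen (94.4% identical across 1009 bases), rose from 0.90 ± 0.19 to 2.72 ± 0.21 TPM (SD, n = 3 each; limma adjusted p = 0.038).

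Copies of ribosomal protein genes moved the same way. Rplp2-ps1, named as a pseudogene of Rplp2, rose from 8.81 ± 2.14 to 29.0 ± 10.2 TPM (SD, n = 3 each; limma adjusted p = 0.013). Rps15a-ps4 stood at 1.35, 1.75 and 3.03 TPM in batch 1 and at 5.65, 9.29 and 5.21 TPM in batch 2 (difference 1.34 ± 0.25, SE; limma adjusted p = 0.021). Rps15a-ps6 stood at 6.18, 6.18 and 8.19 TPM and at 12.7, 26.8 and 18.0 TPM (difference 1.31 ± 0.28, SE; limma adjusted p = 0.032). Rps15a, a protein of the small ribosomal subunit and the source of both, stood at 39.3, 38.7 and 56.6 TPM and at 45.6, 46.85 and 48.25 TPM, with overlapping ranges. Rpl14-ps1 (98.9% identical to Rpl14, and picked after its values were seen) rose from 38.5 ± 10.4 to 72.9 ± 12.9 TPM (SD, n = 3 each; limma adjusted p = 0.041), while Rpl14 had a difference of -0.17 (limma adjusted p = 0.46). Gm13826, listed by GENCODE as Rpl37rt, rose from 27.5 ± 4.05 to 61.1 ± 5.75 TPM (SD, n = 3 each; limma adjusted p = 0.021). Gm5088, an annotated pseudogene, rose from 7.94 ± 0.84 to 19.3 ± 2.70 TPM (SD, n = 3 each; limma adjusted p = 0.0061). Of these 5 ribosomal copies, all lost the call without batch 1 replicate 2 (adjusted p = 0.077 to 0.129), whereas Gm5088 kept it in every such fit (highest adjusted p = 0.034). After median-of-ratios scaling Rps15a-ps6, Rpl14-ps1 and Gm6981 were not called (limma adjusted p = 0.063, 0.096 and 0.074).

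A copy was also among the genes that fell. Gm7367, a processed pseudogene 99.8% identical to Ubald2 across 492 bases, stood at 44.2, 58.8 and 44.1 TPM in batch 1 and at 16.9, 3.22 and 0.57 TPM in batch 2 (difference -3.33 ± 0.63, SE; limma adjusted p = 0.021, and 0.111 without batch 2 replicate 3). Ubald2 stood at 25.1, 15.4 and 12.9 TPM in batch 1 and at 28.4, 31.4 and 35.8 TPM in batch 2. Every Ubald2 value of batch 2 thus lay above those of batch 1, but the difference of 0.85 did not pass (limma adjusted p = 0.31). Gm14305, a protein-coding gene 99.5% identical to Gm4724 across 1646 bases, was listed at 0.05, 0 and 0 TPM in batch 1 and at 2.21, 3.00 and 4.14 TPM in batch 2 (1.99 ± 0.29, SE; limma adjusted p = 0.0088). In treated muscle it stood at 0, 1.40 and 0.38 TPM, so it did not split all 13 libraries by batch. Gm14305 and Gm7367 have a mean level of 0 in the authors' deposited table of SW033291 against vehicle, so their values rest on the TPM table alone. The same holds for Rplp2-ps1. How reads were shared between copy and source was not tested.

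Among 81 tested genes annotated as pseudogenes, a set formed after the data were seen, 9 were called higher (11.1%, against 1.72% of all genes) and 1 lower, 17 lay wholly above batch 1 (21.0%, against 11.9% of all genes) and 4 wholly below (4.9%, against 4.64%). Their median difference was -0.003 beyond that of all genes, with 49 positive and 32 negative values. The number called higher ran from 2, without batch 1 replicate 2 or batch 2 replicate 2, to 10, without batch 1 replicate 4, and was 4 after median-of-ratios scaling. Without batch 1 replicate 4, 11.9% of all genes were called higher.

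**Figure D2:**
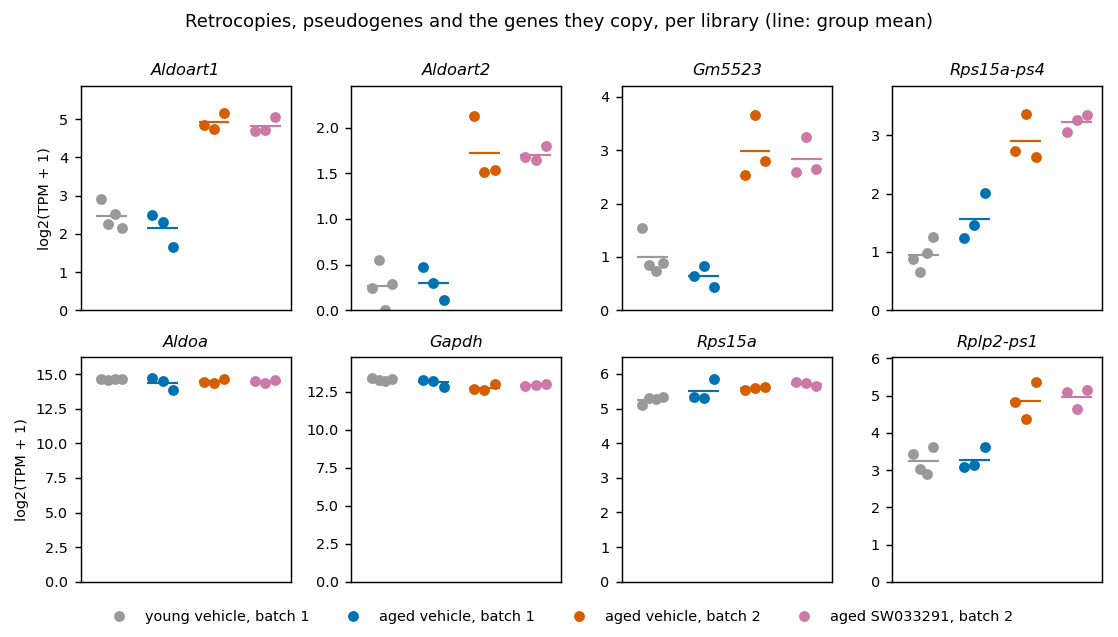
Levels of 5 copies and of 3 source genes in each of the 13 libraries (y axis, log2(TPM + 1); points are libraries, lines are group means, colours are the 4 groups). Aldoart1, Aldoart2, Gm5523, Rps15a-ps4 and Rplp2-ps1 were higher in both batch 2 groups than in both batch 1 groups, whereas Aldoa and Rps15a overlapped.

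Of 16 tested genes of fast fibres, 1 was called higher (6.25%, against 1.72% of all genes) and 1 lower (6.25%, against 0.53%), and the median was 0.02 beyond that of all genes. Myh4, the heavy chain of the fastest fibres, stood at 14599, 13923 and 10873 TPM in batch 1 and at 30410.0, 36932 and 24138 TPM in batch 2. The mean was 13131 ± 1985 TPM (SD, n = 3) in batch 1 and 30494 ± 6397 TPM (SD, n = 3) in batch 2, a ratio of 2.32. The log2 difference was 1.21 ± 0.16 (SE; limma adjusted p = 0.0061), and the highest adjusted p with 1 library left out was 0.034. Young muscle of batch 1 lay between the aged groups, at 16868 to 18806 TPM, and treated muscle of batch 2 at 23275 to 33583 TPM.

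Parvalbumin (Pvalb), the soluble calcium buffer of fast fibres, went the other way. It stood at 26814, 24879.75 and 29294 TPM in batch 1 and at 17404, 17361 and 19496 TPM in batch 2 (difference -0.58 ± 0.11, SE; limma adjusted p = 0.020). Its call was lost without batch 1 replicate 2 (adjusted p = 0.084), batch 2 replicate 2 (0.092) or batch 2 replicate 3 (0.109). Myh1 and Myh2, the heavy chains of intermediate fast fibres, had differences of similar size to Myh4 but did not pass. Myh1 stood at 940.35, 1166 and 462 TPM in batch 1 and at 2163, 2301 and 1053 TPM in batch 2 (1.12 ± 0.34, SE; limma adjusted p = 0.096). Myh2 stood at 134, 423 and 89.5 TPM and at 660.2, 582 and 193 TPM (1.28 ± 0.58, SE; limma adjusted p = 0.26). In both genes the range of batch 2 overlapped that of batch 1, with batch 2 replicate 8 the lowest of its group, and without that library Myh1 passed (limma adjusted p = 0.027).

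Slow-fibre genes differed between libraries of the same batch. Of 14 tested genes 0 were called by limma with all 6 libraries, against 2.25% of all genes. A total of 12 were positive, and the median was 0.64 beyond that of all genes. Without batch 1 replicate 4 the median was 1.04, and 1 gene was called, against 13.8% of all genes. Myh7, the slow heavy chain, stood at 0.31, 0.83 and 29.1 TPM in batch 1 and at 73.85, 66.4 and 8.34 TPM in batch 2 (3.12 ± 1.47, SE; limma adjusted p = 0.28). Myl3, a slow light chain, stood at 0, 2.76 and 221 TPM and at 209, 120.4 and 42.6 TPM (limma adjusted p = 0.34). Myl2, its slow regulatory partner, stood at 5.14, 13.9 and 213 TPM and at 131, 109 and 26.9 TPM (limma adjusted p = 0.61). For these genes batch 1 replicate 4 lay nearer to batch 2 replicates 2 and 3, and batch 2 replicate 8 lay below them. The neonatal chain Myh8 stood at 1.36, 1.36 and 1.80 TPM and at 4.26, 4.62 and 2.11 TPM, apart but short of the threshold (0.85 ± 0.23, SE; limma adjusted p = 0.074). Myh8 passed without batch 1 replicate 4 (limma adjusted p = 0.029) or batch 2 replicate 8 (0.015). Exact 50-base stretches shared with the transcripts of any other gene made up 18.9% of Myh4, 32.1% of Myh1, 28.2% of Myh7 and 21.4% of Myh8. For Myl2 and Myl3 they made up 2.1% and 0%. How reads were shared out between genes was not tested.

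**Figure D3:**
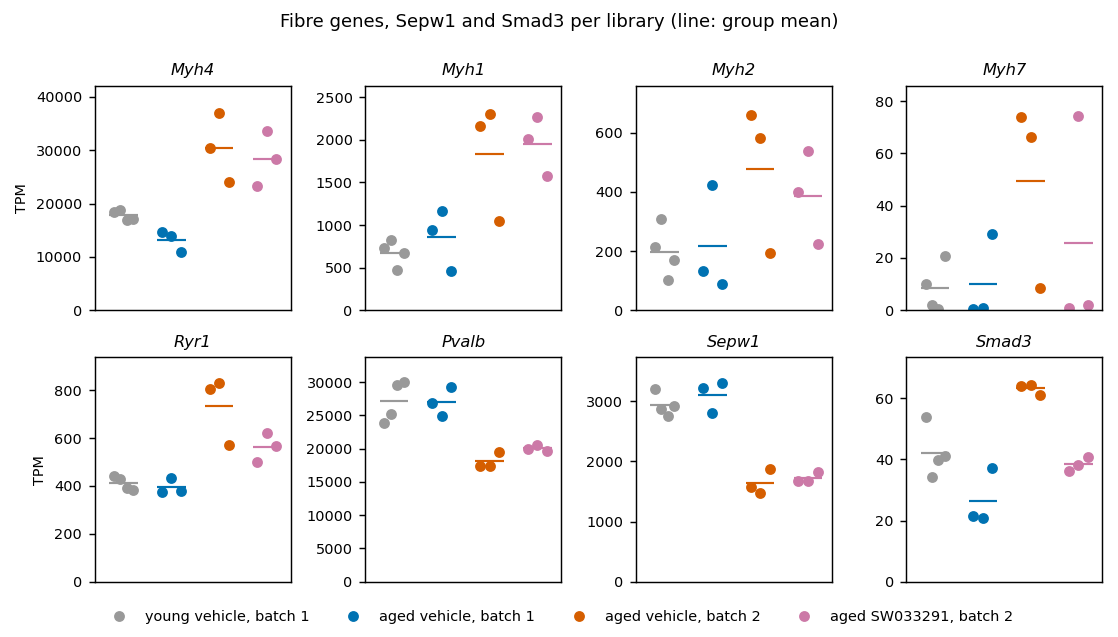
Levels of 8 genes in each of the 13 libraries (y axis, TPM from 0; points are libraries, lines are group means, colours are the 4 groups). Myh4 and Ryr1 were higher and Pvalb and Sepw1 lower in both batch 2 groups than in both batch 1 groups, Myh1, Myh2 and Myh7 overlapped between the aged vehicle groups, and Smad3 was high in the aged vehicle libraries of batch 2 and not in the treated ones.

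Single genes of calcium handling and of glycogen metabolism were called higher in batch 2. Ryr1, the calcium release channel of the sarcoplasmic reticulum, stood at 377, 432 and 379 TPM in batch 1 and at 804, 829 and 573 TPM in batch 2 (0.88 ± 0.14, SE; limma adjusted p = 0.010). Srl, encoding sarcalumenin, a calcium-binding protein of the reticulum, rose from 561 ± 40.1 to 872 ± 89.0 TPM (SD, n = 3 each; limma adjusted p = 0.013). These were 2 of 19 tested calcium handling genes (10.5%, against 1.72% of all genes), 0 were called lower, and the median was 0.16 beyond that of all genes. The list held 5 genes called higher and 2 lower without batch 1 replicate 4, where 11.9% of all genes were called higher and 1.95% lower. Of 22 genes of glycolysis and glycogen, 3 were called higher (13.6%, against 1.72% of all genes) and 0 lower, at a median of 0.06 beyond that of all genes. The counts were 5 higher and 3 lower without batch 1 replicate 4, beside the same shares of all genes as above. After median-of-ratios scaling they were 0 higher and 1 lower. Hk2, the muscle hexokinase, stood at 89.75, 106 and 65.6 TPM and at 184, 183 and 127 TPM (0.92 ± 0.18, SE; limma adjusted p = 0.025). Phka1, a regulatory subunit of phosphorylase kinase, rose from 249 ± 56.0 to 421 ± 51.7 TPM (SD, n = 3 each; limma adjusted p = 0.025). Without batch 1 replicate 2, batch 2 replicate 2 or batch 2 replicate 3, neither list held a called gene. After median-of-ratios scaling Hk2 and Phka1 were not called (limma adjusted p = 0.070 and 0.078).

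Other muscle genes with long transcripts rose as well, and these were picked after their values were seen. Myom1, which crosslinks myosin at the M-band, stood at 457, 483 and 517 TPM in batch 1 and at 837, 914 and 724 TPM in batch 2 (0.76 ± 0.12, SE; limma adjusted p = 0.013). Scn4a, the sodium channel of the muscle membrane, rose from 122 ± 22.1 to 211 ± 42.8 TPM (SD, n = 3 each; limma adjusted p = 0.025). Dysf (dysferlin, membrane repair) rose from 20.6 ± 4.11 to 33.9 ± 2.72 TPM, and Dag1 (dystroglycan) from 76.8 ± 17.7 to 116 ± 6.57 TPM (SD, n = 3 each; limma adjusted p = 0.028 and 0.041). Vcl (vinculin) and Sptb (beta-spectrin) rose by 0.65 and 0.73 log2 units (limma adjusted p = 0.017 both). Myo18a, an unconventional myosin, stood at 42.7, 48.6 and 41.3 TPM and at 91.4, 86.3 and 81.6 TPM (0.95 ± 0.11, SE; limma adjusted p = 0.0034). Diap1 (Diaph1 in GENCODE), an actin nucleator, rose from 31.9 ± 1.25 to 62.8 ± 6.51 TPM (SD, n = 3 each; limma adjusted p = 0.0061). Plec (plectin) rose from 82.2 ± 23.6 to 155 ± 28.3 TPM (SD, n = 3 each; limma adjusted p = 0.032). Titin (Ttn), which has the longest coding sequence of these, did not pass: it stood at 154, 138 and 304 TPM in batch 1 and at 296, 362 and 224 TPM in batch 2 (limma adjusted p = 0.20). Of the called genes in this paragraph, Myo18a and Diap1 kept their call with any 1 library left out, while Myom1, Scn4a, Dysf, Dag1, Vcl, Sptb and Plec lost it without batch 1 replicate 2, batch 2 replicate 2 or batch 2 replicate 3 (highest adjusted p = 0.075 to 0.175). After median-of-ratios scaling Scn4a, Dysf, Dag1, Vcl and Plec were not called (limma adjusted p = 0.065 to 0.127).

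Ribosomal protein genes were called in the downward direction. Of 48 tested genes of the large ribosomal subunit, 8 were called lower (16.7%, against 0.53% of all genes) and 0 higher, 43 had negative differences, and 24 lay wholly below batch 1 (50%, against 4.64% of all genes). Of 33 genes of the small subunit, 5 were called lower (15.2%) and 0 higher, and 20 lay wholly below (60.6%). The medians were -0.38 and -0.38 beyond that of all genes, and stayed between -0.49 and -0.32 with any 1 library left out. The count called in the large subunit was 0 without batch 1 replicate 2 or batch 2 replicate 2 and 12 without batch 2 replicate 8. In the small subunit it was 1 without batch 1 replicate 2 or batch 2 replicate 2 and 8 without batch 1 replicate 4, where 1.95% of all genes were called lower. The median transcript lengths were 930 bases in the large and 878 in the small subunit list, against 3020 over all tested genes. In the shortest decile of genes, up to 1204 bases, 48 of 1182 genes were called lower, against 0.53% of all genes. After centring by transcript length, described below, 0 genes of the large and 1 of the small subunit were called lower. Rps16 stood at 569, 544 and 577 TPM in batch 1 and at 351, 304 and 363 TPM in batch 2 (-0.73 ± 0.10, SE; limma adjusted p = 0.0061), and its young and treated libraries stood at 436 to 483 and 281 to 346 TPM. Rps28 stood at 593, 509 and 584 TPM and at 321, 229 and 385 TPM (-0.88 ± 0.15, SE; limma adjusted p = 0.014). Rpl41, the smallest protein of the ribosome, fell from 1541 ± 154 to 897 ± 150.5 TPM (SD, n = 3 each; limma adjusted p = 0.014). Fau, Rps2, Rpl28, Rpl18 and Rpl35 fell by 0.52 to 0.65 log2 units (limma adjusted p = 0.013 to 0.038). Exact 50-base stretches shared with the transcripts of any other gene made up 25.3% (Rpl18) to 95.1% (Rpl35) of these ribosomal genes. Their estimates thus also depend on how reads were shared out, which was not tested. The aged libraries of batch 1 had the highest summed ribosomal levels of the 4 groups, at 28698 to 35044 TPM for the large subunit, against 24703 to 26699 TPM in young, 23713 to 27683 TPM in aged vehicle and 24793 to 28056 TPM in treated muscle. Among 61 mitochondrial ribosomal genes, Mrpl34 was called lower, at 88.6 ± 13.2 and 51.6 ± 5.25 TPM (SD, n = 3 each; limma adjusted p = 0.014), and 0 were called higher (1.64% lower, against 0.53% of all genes). Mrpl39, a mitochondrial ribosomal gene outside that list and picked after its values were seen, was also called lower (-0.67 ± 0.12, SE; limma adjusted p = 0.017).

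Subunits of the respiratory chain were called in the downward direction. Of 37 complex I genes, 5 were called lower (13.5%, against 0.53% of all genes) and 0 higher, 34 were negative, and the median was -0.24 beyond that of all genes. Ndufc2 stood at 371, 389 and 474 TPM in batch 1 and at 251, 291 and 266 TPM in batch 2 (-0.60 ± 0.11, SE; limma adjusted p = 0.017). Ndufb6 and Ndufb2, accessory subunits of complex I, and Ndufa3 fell by 0.56, 0.55 and 0.46 log2 units (limma adjusted p = 0.017, 0.024 and 0.029). Of 40 genes of complexes II to V, 5 were called lower (12.5%, against 0.53%) and 0 higher, 24 were negative and 16 positive, and the median was -0.18 beyond that of all genes. In that list 15 genes lay wholly below batch 1 (37.5%, against 4.64% of all genes) and 3 wholly above (7.5%, against 11.9%). Cox6b1, a subunit of cytochrome c oxidase, stood at 1415, 1377 and 1269 TPM and at 886, 822 and 943 TPM (-0.62 ± 0.09, SE; limma adjusted p = 0.0068), and it kept its call with any 1 library left out. Uqcrq, a subunit of complex III, stood at 1195, 1245 and 1287 TPM and at 859.9, 787 and 779.65 TPM (-0.62 ± 0.09, SE; limma adjusted p = 0.0094, and 0.051 without batch 2 replicate 3). Cox8b, the muscle isoform of a small oxidase subunit, fell from 2632 ± 327 to 1853 ± 78.7 TPM, and Atp5g2, a gene of the ATP synthase c-subunit, from 709.5 ± 0.44 to 531 ± 31.6 TPM (SD, n = 3 each; limma adjusted p = 0.018 and 0.031). Uqcc2, an assembly factor of complex III, fell from 852 ± 80.0 to 543 ± 16.2 TPM (SD, n = 3 each; limma adjusted p = 0.0088). Apoo, a part of the inner membrane scaffold of mitochondria, stood at 218, 196 and 298 TPM and at 124, 117 and 106 TPM (-1.02 ± 0.16, SE; limma adjusted p = 0.010). The number of complex I genes called lower ran from 0, without batch 2 replicate 2 or 3, to 9, without batch 1 replicate 4. For complexes II to V it ran from 1, without batch 2 replicate 3, to 11, without batch 1 replicate 4. In that last fit 1.95% of all genes were called lower. The median transcript lengths were 971 bases for complex I and 823 for complexes II to V, against 3020 over all tested genes. In the shortest decile of genes, up to 1204 bases, 48 of 1182 genes were called lower, against 0.53% of all genes. After centring by transcript length, described below, 2 genes of complex I and 1 of complexes II to V were called lower.

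Sepw1, a small selenoprotein abundant in muscle (selenoprotein W), had the smallest adjusted p among the lower genes. It stood at 3226, 2811 and 3299 TPM in batch 1 and at 1584, 1475 and 1867 TPM in batch 2, a ratio of 0.53 (-0.93 ± 0.10, SE; limma adjusted p = 0.0026). Young muscle stood at 2754 to 3202 TPM and treated muscle at 1678 to 1822 TPM, so all 13 libraries split by batch number. Tmsb10 (thymosin beta 10, an actin monomer binding peptide) stood at 37.7, 28.5 and 49.2 TPM and at 9.22, 11.6 and 18.55 TPM (-1.50 ± 0.27, SE; limma adjusted p = 0.017). Ptms (parathymosin) fell from 133 ± 26.4 to 62.6 ± 9.27 TPM (SD, n = 3 each; limma adjusted p = 0.041). Of these 3, Sepw1 kept its call with any 1 library left out, and the others lost it without batch 1 replicate 2 (adjusted p = 0.080 and 0.148).

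The called genes differed in transcript length. The 201 higher genes with a GENCODE transcript had a median length of 5511 bases and the 63 lower genes one of 886 bases, against 3020 bases over 11789 tested genes. In the longest decile, from 6469 bases on, 60 of 1179 genes were called higher and 0 lower, and the median difference was 0.31. In the shortest decile, up to 1204 bases, 8 of 1182 genes were called higher and 48 lower, and the median difference was -0.15. Over all 11876 tested genes, 204 were called higher (1.72%) and 63 lower (0.53%), and the median was 0.11. The medians rose in each decile from the shortest to the longest. The tilt differed between libraries of the same group. Taken as the median deviation of the longest decile minus that of the shortest, it was -0.36, -0.22 and 0.14 log2 units in batch 1 and 0.41, 0.58 and 0.06 in batch 2. Young muscle lay at -0.20 to -0.11 and treated muscle at -0.14, 0.14 and 0.04. Batch 1 replicate 4 thus lay above batch 2 replicate 8, and the groups overlapped. In G and C content batch 1 replicate 4 was also apart, with its richest decile of genes 0.84 log2 units below its poorest decile, against 0.29 and 0.46 above in the other libraries of batch 1 and -0.36 to 0.13 in batch 2.

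When each library's genes were centred within 20 bins of transcript length, an alternative added after the data were seen, 7 genes were called higher and 6 lower. The 7 higher genes were Aldoart1, Gm5523, Gm14305, Rps15a-ps4, Aldoart2, Gm13826 and Rpl14-ps1, with differences of 1.17 to 2.67. The lower genes were Ndufb2, Mrpl39, Sepw1, Rps16, Uqcrq and Ndufab1, with differences of -0.80 to -0.52 (Ndufab1 was named after its values were seen). Myh4 then had a difference of 0.84 (limma adjusted p = 0.12), Ryr1 of 0.55 (0.23), Myo18a of 0.60 (0.20) and Smad3 of 0.97 (0.057). Rplp2-ps1 and Gm5088 had no GENCODE length and did not enter that fit. Centring within 20 bins of G and C content left 55 genes higher and 159 lower.

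**Figure D4:**
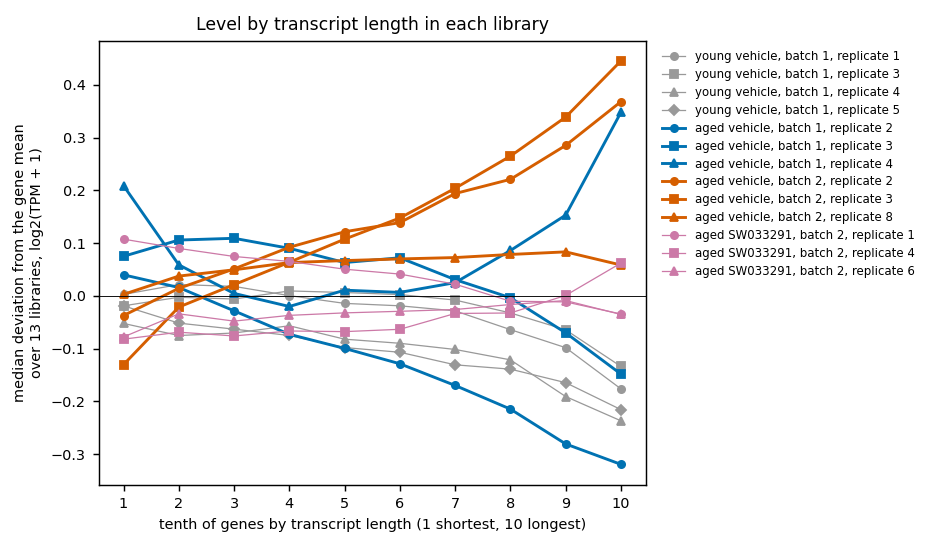
Median deviation of a gene from its mean over the 13 libraries (y axis, log2(TPM + 1)) in deciles of genes by transcript length (x axis, shortest to longest), with 1 line per library and thick lines for aged vehicle. In the longest decile, batch 2 replicates 2 and 3 and batch 1 replicate 4 stood at 0.37, 0.45 and 0.35, batch 2 replicate 8 at 0.06, and batch 1 replicates 2 and 3 at -0.32 and -0.15.

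Signalling and stress genes held some of the larger differences outside the copies. Smad3, which carries signals of TGF-beta and myostatin to the nucleus, stood at 21.45, 20.7 and 37.1 TPM in batch 1 and at 64.1, 64.5 and 61.1 TPM in batch 2 (1.28 ± 0.20, SE; limma adjusted p = 0.010). Treated muscle of batch 2 stood at 36.2 to 40.9 TPM and the young ones at 34.1 to 53.9 TPM, so the aged vehicle libraries of batch 2 were the highest of all 13. Its call was lost without batch 1 replicate 2 (adjusted p = 0.059). Gadd45b, a growth arrest and stress gene, stood at 34.6, 37.2 and 32.2 TPM and at 12.0, 16.6 and 13.7 TPM (-1.25 ± 0.20, SE; limma adjusted p = 0.011, and 0.058 without batch 1 replicate 2). Nupr1, a target of the integrated stress response, stood at 13.9, 13.9 and 13.6 TPM and at 3.20, 8.76 and 4.97 TPM (-1.24 ± 0.28, SE; limma adjusted p = 0.037, and 0.136 without batch 2 replicate 2). In treated muscle of batch 2 Nupr1 stood at 6.79 to 14.2 TPM, so it did not split all 13 libraries by batch number. Lpin1, a phosphatidate phosphatase that also acts on transcription of lipid genes, stood at 105, 92.5 and 75.4 TPM and at 186, 191 and 149.95 TPM (0.95 ± 0.14, SE; limma adjusted p = 0.0094). Igfbp5, a binding protein of insulin-like growth factors, stood at 123, 158 and 208 TPM and at 253, 303 and 492 TPM (1.07 ± 0.23, SE; limma adjusted p = 0.033). Mtor and Rptor, the kinase and the adaptor of the growth-sensing complex mTORC1, rose from 8.10 ± 1.19 to 14.1 ± 2.42 TPM and from 9.57 ± 1.91 to 16.2 ± 2.80 TPM (SD, n = 3 each; limma adjusted p = 0.037 both). Stat3, a transcription factor of cytokine signals, rose from 21.1 ± 3.46 to 41.9 ± 12.9 TPM (SD, n = 3 each; limma adjusted p = 0.039). Lpin1, Igfbp5, Mtor, Rptor and Stat3 were picked after their values were seen, and each lost its call without batch 2 replicate 2 or replicate 3 (highest adjusted p = 0.054 to 0.187). After median-of-ratios scaling Igfbp5, Mtor, Rptor and Stat3 were not called (limma adjusted p = 0.072 to 0.078).

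Among 19 tested clock genes, 2 were called higher (10.5%, against 1.72% of all genes) and 0 lower. Per2, a repressor of the core clock, stood at 6.40, 8.0 and 3.04 TPM in batch 1 and at 14.5, 12.4 and 10.9 TPM in batch 2 (1.06 ± 0.24, SE; limma adjusted p = 0.038). Tef, an output factor of the clock, rose from 175 ± 11.5 to 241 ± 7.83 TPM (SD, n = 3 each; limma adjusted p = 0.025). Both calls were lost without batch 1 replicate 2 (adjusted p = 0.103 and 0.116) and after median-of-ratios scaling (0.077 and 0.096). Without batch 1 replicate 4, where 11.9% of all genes were called higher, 5 clock genes were called higher. Dbp, an output factor with a strong daily rhythm, stood at 128, 145 and 66.2 TPM and at 118, 107 and 193 TPM, and Arntl, the core activator, at 8.29, 7.98 and 16.1 TPM and at 8.57, 7.66 and 10.7 TPM. Neither passed (limma adjusted p = 0.60 and 0.73), and in batch 1 replicate 4 Dbp was lowest and Arntl highest of the 6 libraries. The labels do not state the hour of dissection.

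Single genes of protein turnover and of mitochondrial dynamics were called higher. Among 31 proteasome genes, Psmd1 and Psmd2, the large scaffold subunits of the regulatory particle, were called higher (6.45%, against 1.72% of all genes) and 0 lower. Psmd2 stood at 181, 196 and 161 TPM in batch 1 and at 251, 254 and 254 TPM in batch 2 (0.50 ± 0.10, SE; limma adjusted p = 0.028), and Psmd1 rose from 103 ± 3.54 to 151 ± 24.4 TPM (SD, n = 3 each; limma adjusted p = 0.038). Optn, a receptor of selective autophagy, rose from 49.3 ± 3.71 to 88.0 ± 21.5 TPM, and Mfn1, which fuses mitochondrial outer membranes, from 78.1 ± 7.64 to 115 ± 18.1 TPM (SD, n = 3 each; limma adjusted p = 0.032 and 0.045). Optn was the only call among 25 autophagy and lysosome genes (4.0%, against 1.72% of all genes). Mfn1 was the only call among 21 genes of mitochondrial biogenesis and dynamics (4.76%). The 18 tested atrophy ligases and FoxO targets held 0 calls, against 2.25% of all genes, at a median of 0.04 beyond that of all genes. Without batch 1 replicate 2 all these calls were lost (adjusted p = 0.103 to 0.186), as they were after median-of-ratios scaling (0.078 to 0.158). The proteasome list held 7 genes called higher without batch 1 replicate 4, where 11.9% of all genes were called higher.

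Further called genes of low level completed the 15 largest in each direction. Slc25a30, a mitochondrial carrier, rose from 2.89 ± 0.26 to 9.58 ± 1.62 TPM, Pdpn (podoplanin) from 2.02 ± 0.42 to 5.77 ± 1.85 TPM, Palld (palladin, an actin crosslinker) from 7.52 ± 2.27 to 17.3 ± 5.18 TPM and Fan1, a DNA repair nuclease, from 3.16 ± 2.45 to 8.21 ± 1.32 TPM (SD, n = 3 each; limma adjusted p = 0.037, 0.037, 0.043 and 0.048). Downward, 1700020L24Rik stood at 1.56, 1.71 and 1.15 TPM and Fam71e1 at 1.46, 1.22 and 0.74 TPM in batch 1, and both were listed at 0 in all 3 libraries of batch 2 (limma adjusted p = 0.025 and 0.034). Fam71e1 was also listed at 0 in the 3 treated libraries, while 1700020L24Rik stood at 0.82 to 2.19 TPM there. Inca1, Pemt (phosphatidylethanolamine methyltransferase), Fam151b and Ccl27a (a skin-homing chemokine) fell by 0.88, 0.89, 1.19 and 0.89 log2 units (limma adjusted p = 0.017, 0.038, 0.038 and 0.037). All 10 of these genes lost their call without batch 1 replicate 2 (adjusted p = 0.084 to 0.196), and Slc25a30, Pdpn, Palld and Fan1 also after median-of-ratios scaling (0.065 to 0.070).

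Transcripts of blood cells were high in 1 library of each batch. Of 14 tested neutrophil genes 0 were called with all 6 libraries (6 positive, 8 negative), against 2.25% of all genes. S100a8 and S100a9, the abundant calcium-binding proteins of neutrophils, stood at 0 and 0 TPM in batch 1 replicate 2, at 1.11 and 1.72 TPM in replicate 3 and at 684 and 736 TPM in replicate 4. In batch 2 they stood at 310 and 290 TPM in replicate 2, at 2.60 and 1.63 TPM in replicate 3 and at 4.92 and 6.39 TPM in replicate 8. Without batch 1 replicate 4 the median of the list moved from -0.20 to 1.33 beyond that of all genes, and 1 gene was called higher, against 11.9% of all genes. The alpha-globin gene Hba-a1 stood at 77.5, 115 and 899 TPM in batch 1 and at 864, 118 and 88.0 TPM in batch 2, high in the same 2 libraries. Hbb-bs, a beta-globin gene, was called lower: it stood at 23.9, 28.4 and 235 TPM in batch 1 and was listed at 0 in all 3 libraries of batch 2 (limma adjusted p = 0.045, and 0.0565 after median-of-ratios scaling). Its near copy Hbb-bt (94.9% identical across 585 bases) stood at 12.8, 17.5 and 197 TPM and at 106, 13.9 and 31.7 TPM, with overlapping ranges. In treated muscle Hbb-bs stood at 52.2, 0 and 156 TPM. In each library that listed Hbb-bs at 0 in the aged vehicle group, Hba-a1 and Hbb-bt were above 0. The call of Hbb-bs was lost in 5 of the 6 fits with 1 library left out (limma adjusted p = 0.061 to 0.172) and held without batch 1 replicate 4 (0.047). Hbb-bs has a mean level of 0 in the authors' deposited table of SW033291 against vehicle.

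Lists for the other cell types of muscle held few calls. Among tested markers of endothelium (20), fibro-adipogenic progenitors (18), tendon cells (10), fat cells (22), Schwann cells (11), satellite cells (8), macrophages (20) and B cells (6), 0 were called in either direction, against 2.25% of all genes. At that share a short list can hold no call without differing from other genes. Pseudogenes aside, 33 of the 49 gene lists held none. Of the 14 T and NK cell markers in the table, 1 reached the level needed for testing. In the smooth muscle and pericyte list Abcc9, a subunit of potassium channels that fibres also express, was called higher (1 of 15, 6.67%, against 1.72% of all genes). Abcc9 stood at 35.1, 35.3 and 55.9 TPM in batch 1 and at 74.8, 77.2 and 55.7 TPM in batch 2 (limma adjusted p = 0.047). In the basement membrane list Lamc1, the common laminin chain, was called higher (1 of 13, 7.69%, against 1.72% of all genes). Lamc1 stood at 9.03, 13.45 and 10.2 TPM and at 22.1, 18.4 and 14.65 TPM (limma adjusted p = 0.046). Both calls were lost without batch 1 replicate 2 (adjusted p = 0.195 and 0.191) and after median-of-ratios scaling (0.083 and 0.074). Of those 8 lists the fat cell list had the lowest median, at -0.44 beyond that of all genes, and ran from -0.54 to -0.10 with 1 library left out. In lysates of whole muscle, fewer cells of a type and less RNA per cell cannot be told apart.

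**Figure D5:**
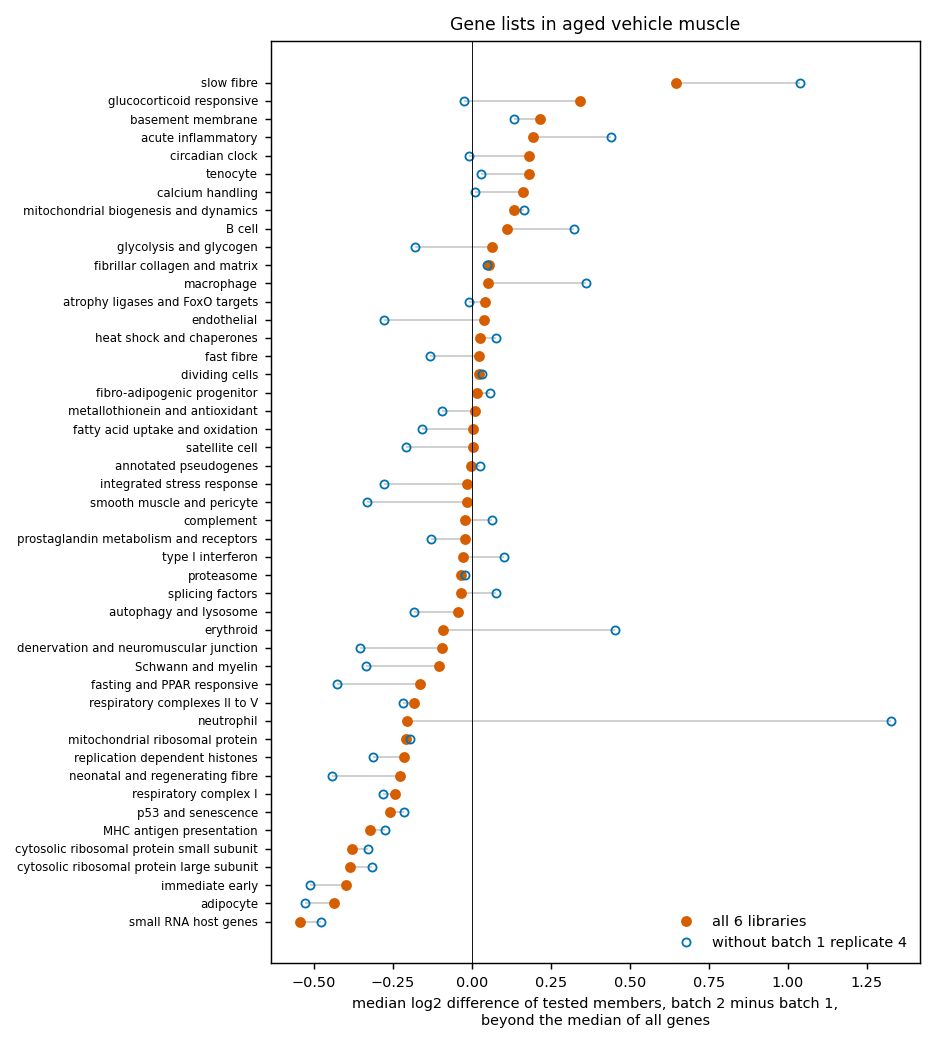
Median difference, batch 2 minus batch 1, of the tested genes of each list (y axis, lists of at least 5 tested genes) beyond the median of all genes (x axis, log2), with all 6 libraries (filled) and without batch 1 replicate 4 (open). The ribosomal lists stayed near -0.38 and -0.32, while the neutrophil list moved from -0.20 to 1.33 and the glucocorticoid list from 0.34 to -0.02.

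Several genes named for their links to ageing, hormones or diet did not pass with all 6 libraries. Hpgd, which encodes the drug's target 15-PGDH, stood at 9.31, 25.4 and 7.59 TPM in batch 1 and at 2.36, 6.23 and 12.8 TPM in batch 2 (-0.93 ± 0.48, SE; limma adjusted p = 0.33). Sln (sarcolipin, an inhibitor of the calcium pump) stood at 84.6, 188 and 96.8 TPM and at 18.7, 32.7 and 64.1 TPM (-1.73 ± 0.46, SE; limma adjusted p = 0.069). Its groups did not overlap, and young muscle stood at 2.81 to 6.75 TPM, below every aged library. Sln passed without batch 1 replicate 4 (limma adjusted p = 0.036) or batch 2 replicate 8 (0.025). Cdkn1a, the cell cycle inhibitor p21, stood at 46.9, 66.2 and 31.5 TPM and at 35.8, 26.7 and 21.4 TPM (limma adjusted p = 0.18, and 0.029 without batch 1 replicate 4). The fibrillar collagen genes Col1a1 and Col3a1 stood at 7.01, 14.7 and 8.11 and at 5.78, 9.77 and 14.0 TPM in batch 1, and at 14.9, 4.75 and 15.1 and at 14.4, 9.14 and 20.5 TPM in batch 2 (limma adjusted p = 0.91 and 0.50). Of 27 matrix genes 0 were called, against 2.25% of all genes. Fkbp5, a glucocorticoid target, stood at 30.4, 28.5 and 14.1 TPM and at 64.2, 61.6 and 34.0 TPM, apart but short of the threshold (1.12 ± 0.29, SE; limma adjusted p = 0.062). Treated muscle of batch 2 stood higher still, at 77.0 to 93.4 TPM of Fkbp5. Mt1 and Mt2, metallothioneins that rise with zinc and glucocorticoids, stood at 272 and 360.4 TPM and at 369 and 509.65 TPM in batch 2 replicates 2 and 3 but at 36.3 and 67.1 TPM in replicate 8 (limma adjusted p = 0.45 and 0.14). Pdk4, a fasting-responsive kinase, stood at 529, 257 and 133 TPM and at 324, 516 and 59.0 TPM, and Fos, an immediate early gene, at 2.26, 6.52 and 6.69 TPM and at 5.34, 5.31 and 1.82 TPM (limma adjusted p = 0.86 and 0.82). For Fkbp5, Mt1, Mt2 and Pdk4 replicate 8 was the lowest library of batch 2, and without it Fkbp5, Mt1 and Mt2 passed (limma adjusted p = 0.022, 0.021 and 0.016).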

How the data were processed

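TPM values per gene were used as deposited. The submitters' processing notes name STAR, RSEM, DESeq2 and DESeq with genome build mm9, without versions or order. The authors' deposited tables of 2 comparisons also hold a mean signal over libraries, a log2 fold change, a score (the test statistic) and a p-value per gene. They served to check gene names and to list called genes with a mean of 0. In the deposited TPM table the gene names do not match their values. Undoing 27 names turned into dates by a spreadsheet, sorting all 24015 in byte order and assigning them to the table gave a Spearman correlation of 0.96 with the authors' mean signal over 23988 genes, against -0.0176 in the deposited order. Every gene name here rests on that step.

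From the TPM, log2(TPM + 1) was computed and fitted with limma 3.58.1 (R 4.3.3, variance trend, 1 term per group, 13 libraries), with Benjamini-Hochberg adjustment over 11876 genes. The fit was tested on simulated data in which every value was drawn independently. That test held no tilt by transcript length and no outlying library, so it could not check their effect on the calls. Copies were aligned with blastn 2.17.0 to GENCODE vM21 transcripts, which also gave length and G and C content for 11789 genes. Genes named are the 15 largest non-overlapping calls in each direction, up to 4 called genes per list (or the first 3 of a list with none, where described), and fixed anchors such as Hpgd and Myh1; others are marked. The members, gene lists and anchors were chosen with earlier results of these data known. The 22 alternatives covered the pseudocount, the filter, scaling, moderation, pairing, omitted libraries, length and G and C content. No library was left out of the reported fit. Some called genes are not reported here.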

Additional observations from a re-analysis of the deposited data

How the results depend on the processing

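Against 204 genes called higher and 63 lower, the higher count moved to 49 with median-of-ratios scaling, 53 with quantile normalization, 1 with the 6 aged vehicle libraries alone, 91 without a variance trend, 1502 with array weights, 915 without batch 1 replicate 4 and batch 2 replicate 2 together, 7 with length centring and 55 with G and C centring. In that order the lower count was 103, 45, 0, 21, 264, 173, 6 and 159. With 1 library left out the counts ran from 10 to 1412 higher and from 7 to 231 lower. The cause of these moves was not tested. Of 80 called genes followed through the alternatives, 12 kept their call in every fit with 1 library left out, and 0 reversed. The lack of reversals is no separate support, since these genes were chosen as called. In 266 of all 267 called genes the groups did not overlap, so leaving out 1 library could not change the sign.

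A replicate block left 60 higher and 10 lower. Only numbers 2 and 3 occur in both batches, and the deviations of same-numbered libraries correlated at -0.147 and -0.0597, so the numbers were taken as names.

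Some uncalled genes changed sign. Pdk4 was 0.38 with the replicate block. Fos was 0.11 with array weights and 0.28 with the block. Col1a1 was -0.0039 with median-of-ratios, -0.0256 with quantile normalization, -0.17 with the block, -0.22 with both libraries out and -0.24 with length centring. S100a9 was -0.053 at a pseudocount of 5. Ddx3y was 0.009 at a pseudocount of 0.1, 0.0018 without the 20 top genes, 0.65 with array weights, 0.61 with the block, 0.74 with both libraries out and 0.028 with G and C centring. Hba-a1 was -0.090 with median-of-ratios and -0.031 with G and C centring. Dbp was -0.050 with array weights and -0.17 with the block. Arntl was 0.023 with array weights and 0.14 with both libraries out. With 1 library left out, Pdk4 ran from -0.92 to 0.64, Fos from -0.65 to 0.14, Col1a1 from -0.13 to 0.62, S100a8 from -1.29 to 3.69, S100a9 from -1.52 to 3.43, Ddx3y from -0.42 to 0.73, Hba-a1 from -0.97 to 1.13, Dbp from -0.0165 to 0.54, and Arntl from -0.35 to 0.11.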
